A study of Mus musculus with 12 samples.

Results

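Metallothioneins are small cysteine-rich proteins that bind zinc and copper, and the liver makes them in large amounts in response to injury and inflammation. The 7 genes described here are the metallothioneins Mt1 and Mt2, the zinc-sensing transcription factor gene Mtf1, and the transporter genes Slc39a14, Slc39a4, Slc30a1 and Slc30a10. They were taken by gene name from a table of 54532 mouse genes, all 7 were present, and all 7 were among the 11451 genes tested. The data are poly(A) RNA-seq of the livers of wild-type C57/BL6J mice, with 3 libraries in each of 4 groups: sham surgery, and 3, 6 or 12 h after 70% of the liver was removed. The labels give no age, no sex and no hour for the sham livers, nor do they state that different animals gave the libraries of one group. The p-values therefore speak of the spread of these samples, which may be technical. One library, 6 h replicate 3, has a title of 6 h and a time tag of 7 h, and it was grouped by its title. Because whole liver was sequenced, fewer cells of a type and less RNA per cell cannot be told apart.

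As background, zinc that enters a cell binds the protein MTF-1, which then binds metal response elements in front of the metallothionein genes and of Slc30a1. Glucocorticoids and interleukin 6 also induce metallothioneins in hepatocytes, and interleukin 6 induces Slc39a14. The SLC39 (ZIP) proteins carry metal into the cytosol and the SLC30 (ZnT) proteins carry it out. ZIP14, the product of Slc39a14, takes up zinc, manganese and iron, and ZnT10, the product of Slc30a10, is the manganese exporter of hepatocytes.

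The metallothionein genes lie head to tail on the plus strand of chromosome 8, and the positions here are those of GRCm38. Mt2 (ENSMUSG00000031762) spans chr8:94172664-94173568 and Mt1 (ENSMUSG00000031765) spans chr8:94179082-94180327, so that Mt1 starts 5514 bases after the end of Mt2. The bases in front of the RefSeq starts of Mt1, Mt2 and Slc30a1 are shown because MTF-1 is known to act on these genes. Those of Slc30a10 are shown for their matches to the same core. Each stretch is the 250 bases before the RefSeq start (GRCm38.p6, plus strand). Capitals mark each match to the metal response element core, which was searched as TGCACNC or TGCGCNC on both strands.
Mt1, chr8:94178839-94179088: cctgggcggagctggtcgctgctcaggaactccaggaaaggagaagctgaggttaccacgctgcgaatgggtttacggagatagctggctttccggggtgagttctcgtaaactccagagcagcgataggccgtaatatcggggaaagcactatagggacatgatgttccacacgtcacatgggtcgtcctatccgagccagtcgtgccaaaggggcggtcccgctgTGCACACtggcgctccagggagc
Mt2, chr8:94172368-94172617: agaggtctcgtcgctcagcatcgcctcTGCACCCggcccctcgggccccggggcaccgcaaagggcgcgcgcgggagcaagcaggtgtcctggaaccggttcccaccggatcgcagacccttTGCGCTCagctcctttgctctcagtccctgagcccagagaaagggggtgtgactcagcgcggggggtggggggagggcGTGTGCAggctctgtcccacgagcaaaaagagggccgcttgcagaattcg
Slc30a1, chr1:191906531-191906780: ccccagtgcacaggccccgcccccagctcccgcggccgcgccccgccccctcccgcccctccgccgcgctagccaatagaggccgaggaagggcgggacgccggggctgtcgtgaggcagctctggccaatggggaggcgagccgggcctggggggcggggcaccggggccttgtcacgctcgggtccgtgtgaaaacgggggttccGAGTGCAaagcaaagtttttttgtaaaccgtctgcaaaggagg
Slc30a10, chr1:185454598-185454847: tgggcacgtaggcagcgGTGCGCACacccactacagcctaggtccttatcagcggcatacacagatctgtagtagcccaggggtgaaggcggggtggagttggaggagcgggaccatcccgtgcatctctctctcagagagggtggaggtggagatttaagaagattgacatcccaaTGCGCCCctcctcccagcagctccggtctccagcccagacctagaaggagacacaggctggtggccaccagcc
The RefSeq promoter table held 5 of the 7 genes, the 4 above and Mtf1, with windows of 300 bases that include 50 bases after the start. In these windows Mt2 had 4 matches, Mt1 had 3, Slc30a10 had 3, 2 of which overlap on opposite strands, Slc30a1 had 2 and Mtf1 had 0. Of 32851 promoters of this length, 25.7% held 1 or more matches, 7.11% held 2 or more, 1.97% held 3 or more and 0.517% held 4 or more. Only 1 of the 3 matches of Mt1 lies in the printed bases, and the others lie after the annotated start. None of the 5 windows held the palindromic glucocorticoid response element, found in 0.00913% of promoters, or the STAT site TTCNNNGAA, found in 8.3%. These matches describe the letters only. The printed Mt2 bases end before the gene start given above, 94172664. Annotated exons of Mt1 also start at 94179211 and 94179241, and an exon of Mt2 at 94172860. These 3 starts lie beyond the windows, so that matches close to them may be missing from the counts.

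Library totals lay between 15573405 and 17199639 counts. Levels are deposited FPKM, which divide counts by the length of the gene and an effective library size, and differences are edgeR log2 differences between groups with their SE. Calls were made at adjusted p below 0.05, with the adjustment over all 11451 genes. Of the sham libraries, replicate 1 differed most. Its mitochondrially encoded transcripts took 11.9% of the counts, against 6.26% and 5.52% in sham replicates 2 and 3, and the lowest correlation of log2 CPM between sham libraries was 0.950, against 0.978 or more within the resected groups. The hepatocyte markers Alb, Ttr, Apoa1, Hnf4a and Cps1 summed to 34743 to 36639 FPKM in sham and 36957 to 44982 at 3 h. At 6 h they summed to 33181 to 38225 FPKM, and at 12 h to 21646 to 23336 FPKM. The sum is mostly Alb, and its members did not move as one: Hnf4a rose by log2 1.07 at 3 h and 0.83 at 6 h (edgeR adjusted p = 0.000257 and 0.000764). At 12 h Alb, Ttr and Apoa1 fell, while Cps1 was at 0.50 and Hnf4a at -0.18 (edgeR adjusted p = 0.133 and 0.406).

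Mt1 was the member with the highest level after resection and one of the strongest responses in the table. Its levels were 3.40, 15.02 and 16.4 FPKM in the 3 sham libraries, 2771, 2769.9 and 3758 FPKM at 3 h, 4989, 6516 and 5286 FPKM at 6 h, and 1011, 923 and 912 FPKM at 12 h. No resected library came near a sham library, and the 12 h livers lay between sham and the earlier times. In rank by FPKM within a library, Mt1 was the 6198th, 2117th and 1938th gene in sham, between the 15th and the 25th at 3 and 6 h, and between the 53rd and the 57th at 12 h. Mt1 took 0.335% to 0.432% of all counts at 3 h, 0.563% to 0.727% at 6 h, and at 12 h 0.122% to 0.142%, against 0.00236% or less in each sham library. The log2 difference from sham was 8.01 ± 0.50 at 3 h (edgeR adjusted p = 5.15e-07), 8.88 ± 0.52 at 6 h (edgeR adjusted p = 1.67e-07) and 6.34 ± 0.47 at 12 h (edgeR adjusted p = 1.74e-06). These were the 6th, 6th and 10th largest differences of the 11451 genes.

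The Mt1 level at 12 h was 948.7 ± 54.2 FPKM, against 5597 ± 810 FPKM at 6 h (SD, n = 3 each), a fall of log2 -2.54 ± 0.39 (edgeR adjusted p = 0.000498). Set against 3 h, with 3099.5 ± 570.1 FPKM, the 12 h livers were lower by log2 -1.68 ± 0.38 (edgeR adjusted p = 0.00463). Between 6 h and 3 h the groups did not overlap, but the difference of 0.87 ± 0.37 was not called (edgeR adjusted p = 0.175). It was called without sham replicate 1 (0.87, edgeR adjusted p = 0.00132), with no filter on low values (0.84, edgeR adjusted p = 0.000243) and with only the 6 libraries compared (0.86, edgeR adjusted p = 0.0103). Sham replicate 1 had 72 Mt1 counts, against 348 and 393 in sham replicates 2 and 3, and without it the differences from sham were 7.58, 8.44 and 5.90 at 3, 6 and 12 h.

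**Figure D1:**
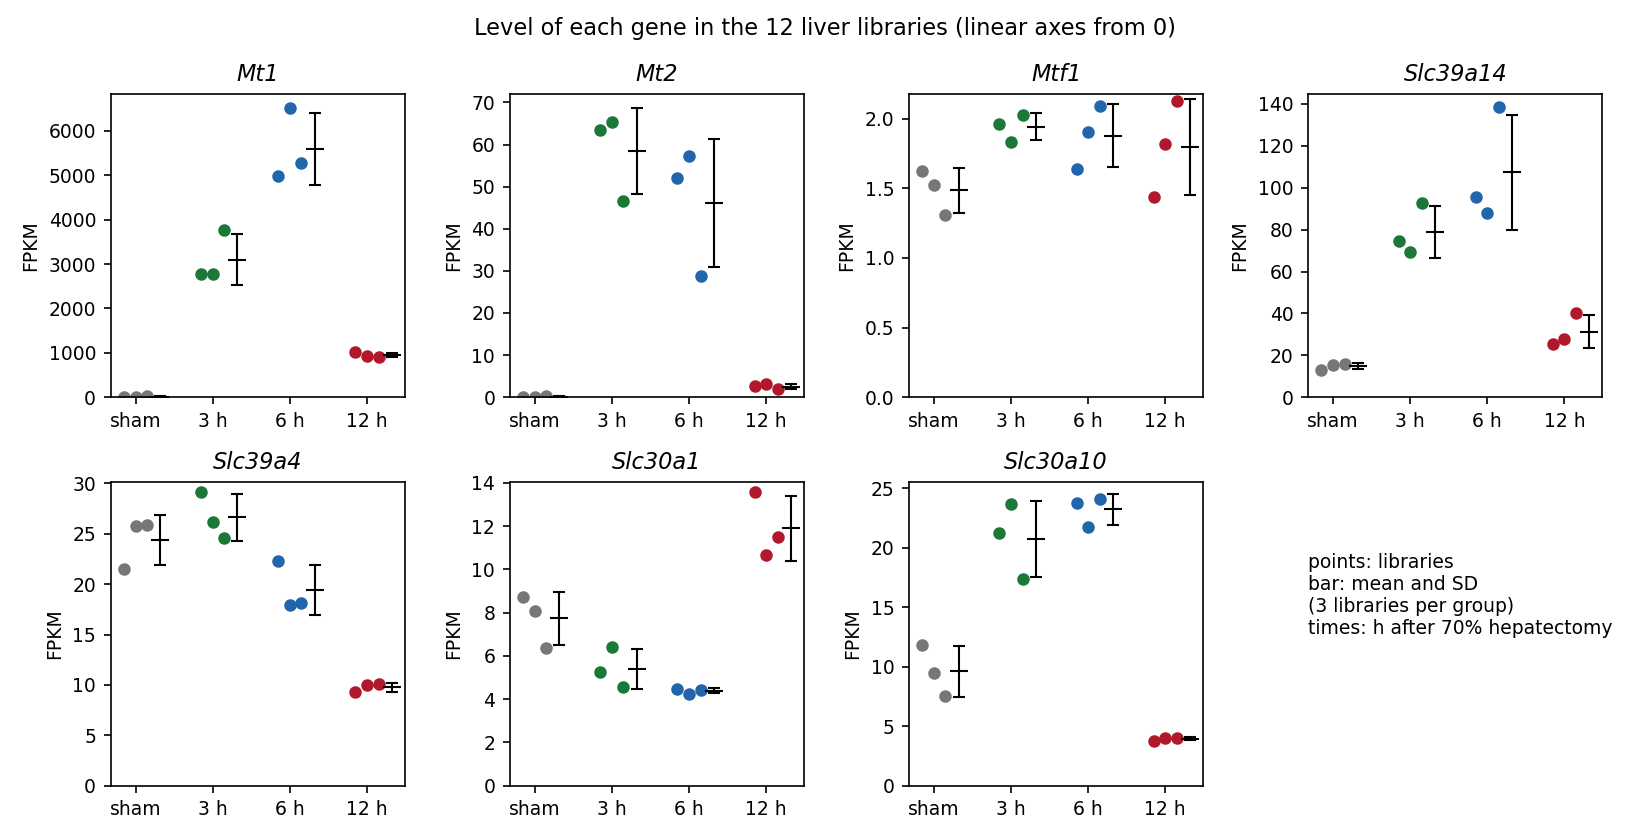
FPKM of each gene (vertical axes, linear from 0) in the 12 libraries, by group (horizontal axis: sham and h after resection). Points are libraries and bars are the mean and SD of 3 libraries. Mt1, Mt2 and Slc39a14 peak at 3 or 6 h, Slc30a10 is lowest at 12 h with 3.93 FPKM on average, and Slc30a1 is highest at 12 h with 11.9 FPKM.

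Mt2 had almost no counts in sham livers and was counted after resection, but far fewer of its reads were counted than of those of Mt1. Its counts were 0, 0 and 3 in sham, 604, 583 and 394 at 3 h, 436, 519 and 230 at 6 h, and 28, 33 and 20 at 12 h. The sham, 3 h or 6 h, and 12 h libraries form separate ranges. In FPKM the means were 0.0884 ± 0.153 in sham, 58.4 ± 10.3 at 3 h, 46.1 ± 15.2 at 6 h and 2.52 ± 0.586 at 12 h (SD, n = 3 each). Mt2 was the only member that passed the filter on low values through its resected libraries alone, with 1 FPKM or more in 9 of the 12 libraries. The other 6 members reached that level in all 12.

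Since 3 counts make up the whole sham level of Mt2, its rise is given as a ratio of scaled counts with a 95% interval (Clopper-Pearson; counting error is all that it covers). The ratio to sham was 614 at 3 h (interval 209.8 to 2981), 491 at 6 h (168 to 2386) and 26.9 at 12 h (8.89 to 133). All 3 sham counts came from sham replicate 3. Without that library the other 2 sham libraries held 0 counts, and 3 counts were assumed for them. On that assumption the ratio was at least 399.6, 319.7 and 17.5 at 3, 6 and 12 h, which are floors and not estimates. The intervals above reach lower values. Between resected groups, Mt2 was lower at 12 h than at 6 h by log2 -4.17 ± 0.35 (edgeR adjusted p = 6.46e-06) and than at 3 h by -4.50 ± 0.35 (edgeR adjusted p = 4.74e-06). Between 6 h and 3 h it differed by -0.33 ± 0.28 with overlapping groups (edgeR adjusted p = 0.51).

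The Mt2 counts carry a limit of annotation. On the minus strand the single-exon antisense gene Gm45774 (chr8:94170748-94173412) covers 432 of the 588 exonic bases of Mt2, or 73.5%, and leaves 156 bases that belong to Mt2 alone. The strand used in counting is not given in the sources used here, and without it reads of Mt2 and of Gm45774 cannot be told apart. Gm45774 had 0 counts in each sham library, 174, 188 and 140 at 3 h, 168, 168 and 179 at 6 h, and 15, 22 and 21 at 12 h. With 3 counts assumed for the sham group, its ratio to sham was at least 195.0, 213.5 and 19.3 at 3, 6 and 12 h. With the counts of Mt2 and Gm45774 added together, the log2 difference from sham was 9.47 at 3 h, 9.27 at 6 h and 5.35 at 12 h, an alternative chosen after the data were seen.

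The counts of Mt1 and Mt2 did not keep 1 proportion. There were 92.7, 89.9 and 171 Mt1 counts for each Mt2 count at 3 h, 203, 241 and 389 at 6 h, and 832, 637 and 1015 at 12 h. The 3 ranges do not overlap. Sham replicate 3, the only sham library with Mt2 counts, had 131, from only 3 Mt2 counts. Whether the overlap of Mt2 with Gm45774 lowered the Mt2 counts was not tested. Mt1 has no annotated overlap with another gene. Mt1 and Mt2 are related in sequence, so that a read may fit both, and how such reads were counted is not given in the sources used here. With their counts summed into 1 feature the differences from sham were 8.05, 8.90 and 6.35 at 3, 6 and 12 h, close to those of Mt1.

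**Figure D2:**
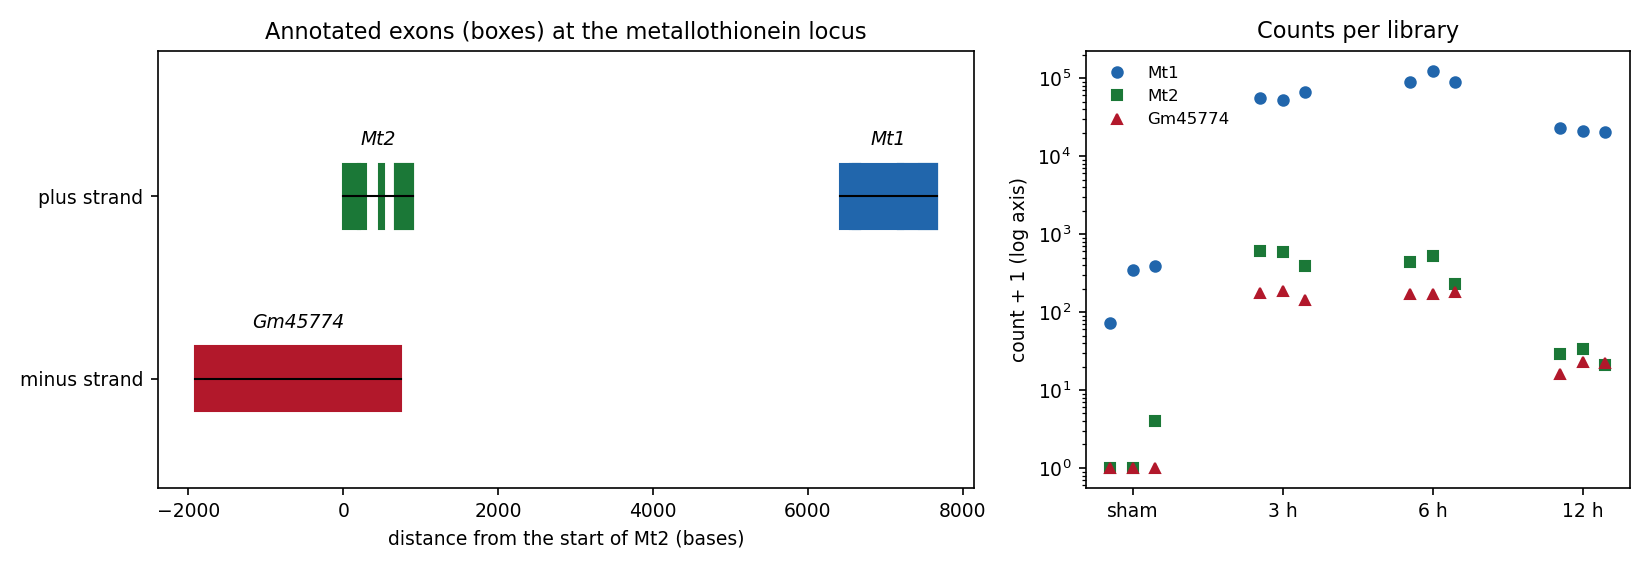
Left, annotated exons (boxes) of Mt2 and Mt1 on the plus strand and of Gm45774 on the minus strand, by distance from the start of Mt2 in bases. Right, counts plus 1 per library on a log axis for the 3 genes, by group; Mt1 lies above Mt2 and Gm45774 in every library, and Gm45774 has 0 counts in all sham libraries.

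Mtf1 (ENSMUSG00000028890), whose product switches on Mt1 and Mt2 when zinc rises, was low and was called in none of the 6 comparisons. Its levels were 1.63, 1.52 and 1.31 FPKM in sham, 1.96, 1.83 and 2.02 FPKM at 3 h, 1.64, 1.90 and 2.09 FPKM at 6 h, and 1.44, 1.82 and 2.12 FPKM at 12 h. In FPKM the 3 h and 6 h libraries lay above all sham libraries, and the 12 h libraries overlapped with sham. In TMM-scaled CPM the lowest 6 h library, with 14.801, lay just under the highest sham library, with 14.896. The log2 difference from sham was 0.35 at 3 h (95% interval -0.012 to 0.70, edgeR adjusted p = 0.163), 0.31 at 6 h (-0.046 to 0.67, edgeR adjusted p = 0.168) and 0.26 at 12 h (-0.093 to 0.62, edgeR adjusted p = 0.255). Over the 4 groups together Mtf1 did not pass either (edgeR F-test adjusted p = 0.269). The other 6 members passed that F-test, which 50% of all tested genes did. Among the 6 is Mt2, which passed the filter on low values only through resected libraries, so that its result is not independent of the filter.

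Read together, 4 of the 7 members rose and 1 fell at 3 h against sham, where 9.81% of all genes rose and 11.7% fell. At 6 h again 4 rose and 1 fell, beside 16.8% and 18.2% of all genes. At 12 h 4 rose and 2 fell, beside 13.5% and 15.3% of all genes. Mt2 passed the filter on low values only through resected libraries. This favours a difference from sham, so that its calls are not independent of the filter. Without Mt2, 3 of 6 members rose at each of the 3 times, among them Mt1 and Slc39a14 each time. With library totals as the scale the shares of all genes became 6.86% higher and 20.3% lower at 3 h, and 9.15% and 32.2% at 6 h. The members then had 4 rises and 1 fall at 3 h, and 4 rises and 2 falls at 6 h. On TMM-scaled CPM, the libraries of 6 members did not overlap with sham at 3 h, those of 5 at 6 h and those of 6 at 12 h, in either direction, beside 36.3%, 43.6% and 38.7% of all genes. Without sham replicate 1 the number of members called was 4 at 3 h, and it was 6 at 6 h and 6 at 12 h. In that setting 1274 of the 11451 genes were higher and 1398 lower at 3 h. At 6 h 2437 were higher and 2463 lower, and at 12 h 2597 and 2666. With all libraries these counts were 1123 and 1345, 1924 and 2080, and 1547 and 1751. The comparisons with sham share the sham libraries, so that they are not independent of each other.

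Slc39a14 (ENSMUSG00000022094, chr14:70303469-70351425) was the transporter with the largest rise. Its levels were 13.1, 15.4 and 15.9 FPKM in sham, 74.7, 69.2 and 92.6 FPKM at 3 h, 95.5, 87.8 and 139 FPKM at 6 h, and 25.6, 27.9 and 40.2 FPKM at 12 h. The sham range, the 12 h range and the range of the 3 h and 6 h libraries did not overlap. Against sham the log2 difference was 2.37 ± 0.22 at 3 h (edgeR adjusted p = 8.94e-06), 2.83 ± 0.22 at 6 h (edgeR adjusted p = 1.19e-06) and 1.06 ± 0.21 at 12 h (edgeR adjusted p = 0.00215). The 12 h level of 31.2 ± 7.85 FPKM was below the 107 ± 27.5 FPKM at 6 h by log2 -1.77 ± 0.21 (SD, n = 3 each; edgeR adjusted p = 8.71e-05). The highest 6 h value, 139 FPKM, was that of the library with the 7 h tag, and the 6 h and 3 h groups overlapped (difference 0.46 ± 0.21, edgeR adjusted p = 0.192).

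Slc39a4 (ENSMUSG00000063354, chr15:76612383-76617384) encodes ZIP4, known as the zinc importer of the intestine. In sham livers it had the highest mean level per length of the 7 members. Its levels were 21.5, 25.8 and 25.8 FPKM in sham, 29.1, 26.2 and 24.6 FPKM at 3 h, 22.3, 17.9 and 18.1 FPKM at 6 h, and 9.27, 10.01 and 10.04 FPKM at 12 h. The 12 h libraries lay below all others. The fall at 12 h was log2 -1.33 ± 0.14 against sham (edgeR adjusted p = 2.64e-05), -0.97 ± 0.14 against 6 h (edgeR adjusted p = 0.000281) and -1.42 ± 0.14 against 3 h (edgeR adjusted p = 1.98e-05). At 3 h it differed from sham by 0.088 (95% interval -0.21 to 0.38, edgeR adjusted p = 0.692), a sign that turned to -0.090 with library totals as the scale. The difference at 6 h was -0.36 ± 0.14 (edgeR adjusted p = 0.0587), which was called without sham replicate 1 (-0.44, edgeR adjusted p = 0.0118) and without 6 h replicate 1 (-0.46, edgeR adjusted p = 0.0334). It was also called by DESeq2 (-0.36, adjusted p = 0.026) and with library totals (-0.67, edgeR adjusted p = 0.00367). Between 6 h and 3 h it was -0.44 ± 0.14 (edgeR adjusted p = 0.0618), called without sham replicate 1 (edgeR adjusted p = 0.017) or 6 h replicate 1 (edgeR adjusted p = 0.0489). It was also called by DESeq2 (adjusted p = 0.0101), with RLE scaling (edgeR adjusted p = 0.0485) and with library totals (edgeR adjusted p = 0.0336).

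The 2 importer genes therefore changed order. Slc39a4 stood at 1.63 to 1.68 times the FPKM of Slc39a14 in the sham libraries, at 0.265 to 0.390 times at 3 h, at 0.131 to 0.233 times at 6 h and at 0.250 to 0.362 times at 12 h. No resected library overlapped with sham. This ratio, and the one of Slc39a14 to Slc30a10 below, were chosen after their values were seen and were not tested.

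Slc30a1 (ENSMUSG00000037434, chr1:191906767-191913247) encodes ZnT1, the zinc exporter of the plasma membrane and, like Mt1, a known target of MTF-1. It moved opposite to the metallothioneins at the early times. Its levels were 8.74, 8.08 and 6.39 FPKM in sham, 5.25, 6.41 and 4.58 FPKM at 3 h, 4.49, 4.26 and 4.41 FPKM at 6 h, and 13.6, 10.7 and 11.5 FPKM at 12 h. In FPKM, 3 h replicate 2 reached just above the lowest sham library, although the groups lay apart in TMM-scaled CPM, all 6 h libraries lay below sham and all 12 h libraries lay above it. The fall was log2 -0.55 ± 0.16 at 3 h (edgeR adjusted p = 0.0262) and -0.85 ± 0.16 at 6 h (edgeR adjusted p = 0.0013). At 12 h Slc30a1 was higher than in sham by 0.61 ± 0.16 (edgeR adjusted p = 0.0121), than at 6 h by 1.46 ± 0.16 (edgeR adjusted p = 5.41e-05) and than at 3 h by 1.17 ± 0.16 (edgeR adjusted p = 0.000203).

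The call of Slc30a1 at 3 h was lost without sham replicate 1 (-0.46), sham replicate 2 (-0.52), 3 h replicate 1 (-0.51) or 3 h replicate 3 (-0.44), with edgeR adjusted p of 0.0528 to 0.118. It was also lost with no filter on low values (-0.50) and with only the 6 libraries compared (-0.53). At 12 h the call was lost without sham replicate 3 (0.49, edgeR adjusted p = 0.0545) or 12 h replicate 1 (0.50, edgeR adjusted p = 0.0558). The fall at 6 h and the differences between 12 h and the earlier times were called without any 1 of the libraries.

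Slc30a10 (ENSMUSG00000026614, chr1:185454848-185468762) rose early and then dropped under its sham level. Its levels were 11.8, 9.51 and 7.55 FPKM in sham, 21.3, 23.7 and 17.4 FPKM at 3 h, 23.8, 21.8 and 24.1 FPKM at 6 h, and 3.79, 4.007 and 4.001 FPKM at 12 h. The 3 h and 6 h libraries overlapped with each other, all lay above sham, and all 12 h libraries lay below sham. Relative to sham the log2 difference was 1.07 ± 0.17 at 3 h (edgeR adjusted p = 0.000584), 1.25 ± 0.17 at 6 h (edgeR adjusted p = 8.45e-05) and -1.30 ± 0.17 at 12 h (edgeR adjusted p = 0.000142). The step at 12 h against 6 h was -2.54 ± 0.18 (edgeR adjusted p = 2.25e-06), as large as that of Mt1 over the same hours.

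The transcripts of the 2 hepatocyte manganese carriers, ZIP14 inward and ZnT10 outward, both rose at 3 and 6 h and were lower at 12 h than at 6 h. They differed in the size of the rise and in the level at 12 h. Against sham, Slc39a14 was then at log2 1.06 and Slc30a10 at -1.30. Slc39a14 stood at 1.11, 1.62 and 2.11 times the FPKM of Slc30a10 in sham, 3.51, 2.92 and 5.33 times at 3 h, 4.02, 4.03 and 5.75 times at 6 h, and 6.75, 6.96 and 10.04 times at 12 h. The 3 h and 6 h ranges overlapped, and the sham and 12 h ranges lay apart below and above them. A ratio of transcripts says nothing of transport.

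**Figure D3:**
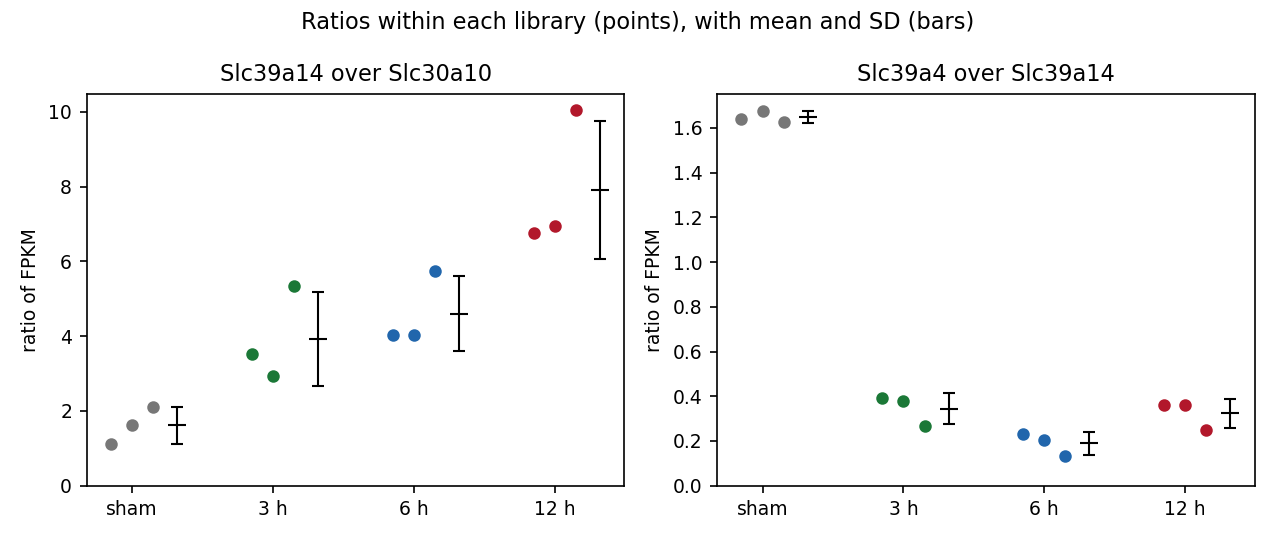
Ratio of FPKM within each library (points) by group, with mean and SD of 3 libraries (bars). Left, Slc39a14 over Slc30a10, with means of 1.61 in sham and 7.92 at 12 h; right, Slc39a4 over Slc39a14, with means of 1.65 in sham and 0.189 at 6 h.

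Between resected groups, the called differences all involved 12 h. At 12 h against 6 h, 5 members fell and 1 rose, where 12.6% of all genes fell and 12.1% rose. At 12 h against 3 h the counts were the same, 5 lower and 1 higher, beside 18.2% and 17.8% of all genes. With library totals as the scale, 4.97% of all genes fell and 27% rose at 12 h against 6 h, and 11.9% fell and 27% rose at 12 h against 3 h, while 5 members fell and 1 rose in both. At 6 h against 3 h, edgeR called 0 of 7 members, against 8.63% of all genes. DESeq2 called 1, with 711 of the 11451 genes higher and 823 lower. With library totals 1 member fell, beside 2.84% of all genes higher and 6.6% lower. The 6 h and 3 h libraries lay apart for 2 members, Mt1 and Slc39a4, and for 35% of all genes. At 12 h they lay apart from 6 h for 6 members and from 3 h for 6 members, beside 46.8% and 55.7% of all genes. At 6 h against 3 h, 3 of the 7 members (Mt1, Slc39a14 and Slc39a4) had an unadjusted p under 0.05 by edgeR, as did 23.8% of all genes. Beside Mt2, 3 members share exonic bases with another annotated gene on the minus strand: 9.13% of those of Slc30a10, 8.92% of those of Slc30a1 and 8.1% of those of Mtf1. Slc39a14 and Slc39a4 share 0.

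**Figure D4:**
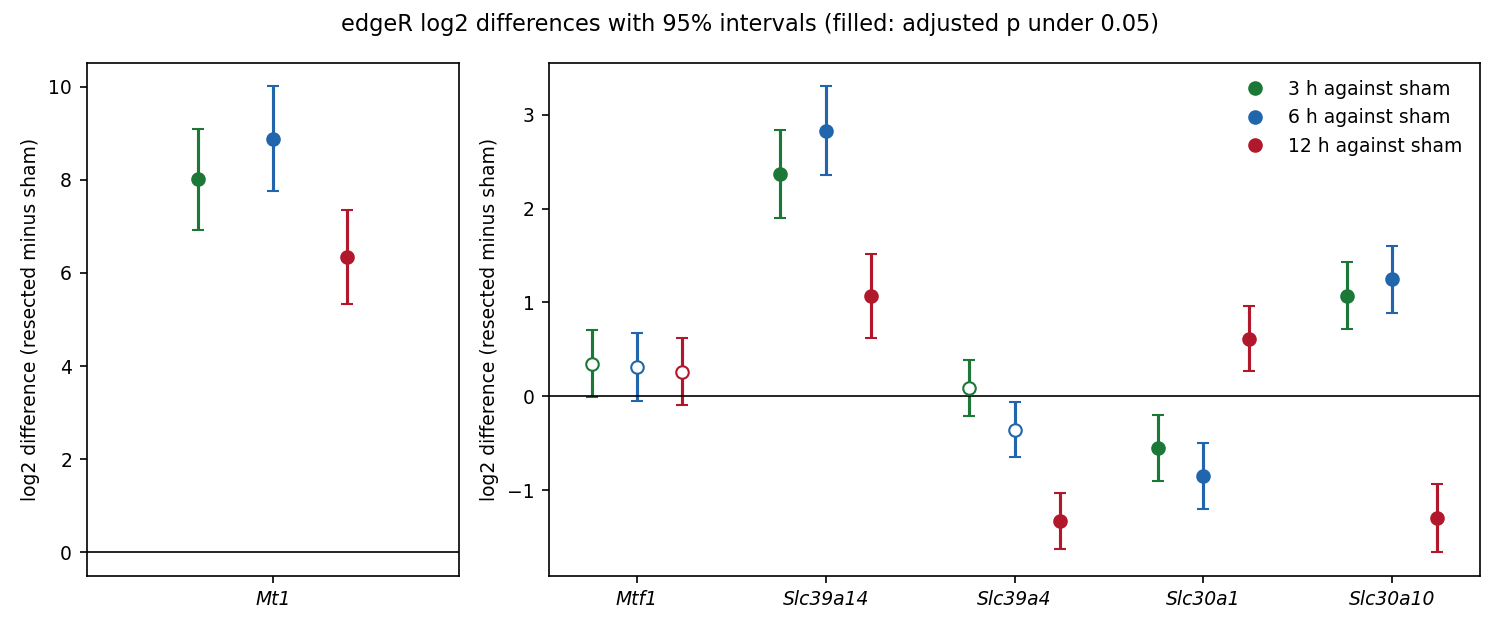
edgeR log2 difference from sham with its 95% interval for Mt1 (left) and 5 other genes (right) at 3, 6 and 12 h. Filled points have an adjusted p under 0.05; Slc30a1 and Slc30a10 cross zero in opposite directions, with -0.85 and 1.25 at 6 h and 0.61 and -1.30 at 12 h.

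Other genes tied to metals moved in both directions. The list of 46 such genes joined zinc, copper and manganese genes with known MTF-1 targets such as Hamp, Gclc and Ndrg1. It held 34 tested genes, of which 7 rose and 3 fell at 3 h, 13 rose and 6 fell at 6 h, and 9 rose and 6 fell at 12 h. Of all genes, 9.81%, 16.8% and 13.5% rose at these times, and 11.7%, 18.2% and 15.3% fell. The median log2 difference of the 34 genes was 0.058, 0.17 and 0.11 at 3, 6 and 12 h, beside -0.021, -0.0089 and -0.017 over all genes. The count at 12 h was 9 without 12 h replicate 1 and 9 without 12 h replicate 3, against 15 with all libraries. Mt3 and Mt4, the metallothioneins of brain and of squamous epithelium, were at or under 0.185 and 0.370 FPKM in every library and were not tested.

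Of the 8 other ZnT genes 5 were tested, and 1, 3 and 2 of them rose at 3, 6 and 12 h, and 0 fell. Slc30a5, a zinc carrier of the early secretory pathway, had 4.07 ± 0.622 FPKM in sham, 8.66 ± 1.04 at 3 h, 19.1 ± 3.57 at 6 h and 9.80 ± 1.53 at 12 h (SD, n = 3 each). It rose against sham by log2 1.05 ± 0.18 at 3 h (edgeR adjusted p = 0.000941), 2.21 ± 0.18 at 6 h (edgeR adjusted p = 1.71e-06) and 1.26 ± 0.18 at 12 h (edgeR adjusted p = 0.000226). Slc30a7, which loads the Golgi with zinc, rose by 1.05 at 6 h (edgeR adjusted p = 0.000333) and by 0.49 at 12 h (edgeR adjusted p = 0.0412). Slc30a6, the partner of Slc30a5, rose by 0.48 at 6 h (edgeR adjusted p = 0.0414). The last 2 calls did not stand without sham replicate 3 (0.42 for Slc30a7 at 12 h, 0.38 for Slc30a6 at 6 h), among other libraries.

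Of the 12 other ZIP genes 8 were tested, and 1 rose at 3 h, 3 rose and 1 fell at 6 h, and 2 rose and 1 fell at 12 h. Slc39a1, a zinc importer of the plasma membrane, had 27.2 ± 0.718 FPKM in sham, 44.6 ± 3.65 at 3 h, 55.2 ± 2.80 at 6 h and 39.7 ± 1.799 at 12 h (SD, n = 3 each). It rose against sham by 0.68, 0.995 and 0.54 at 3, 6 and 12 h, with edgeR adjusted p of 0.00117, 2.89e-05 and 0.00419. Slc39a10, which MTF-1 is known to repress in zinc-replete cells, rose at 6 h by 1.32 ± 0.32 (edgeR adjusted p = 0.00548). Its mean level was 0.686 FPKM in sham, 0.865 at 3 h, 1.74 at 6 h and 0.717 at 12 h. It thus passed the filter on low values mainly through its 6 h libraries, which favours a rise at 6 h. Slc39a8, the closest relative of Slc39a14 and a manganese importer, fell at 6 h by 0.86 on the log2 scale (edgeR adjusted p = 0.00133) and had -0.50 at 12 h (edgeR adjusted p = 0.0344), a call lost without sham replicate 1 (-0.32). Slc39a13, a zinc carrier of vesicles, rose by 0.52 at 6 h (edgeR adjusted p = 0.036) and by 0.61 at 12 h (edgeR adjusted p = 0.0212), calls lost without 6 h replicate 1 (0.47) and without 12 h replicate 1 (0.55).

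**Figure D5:**
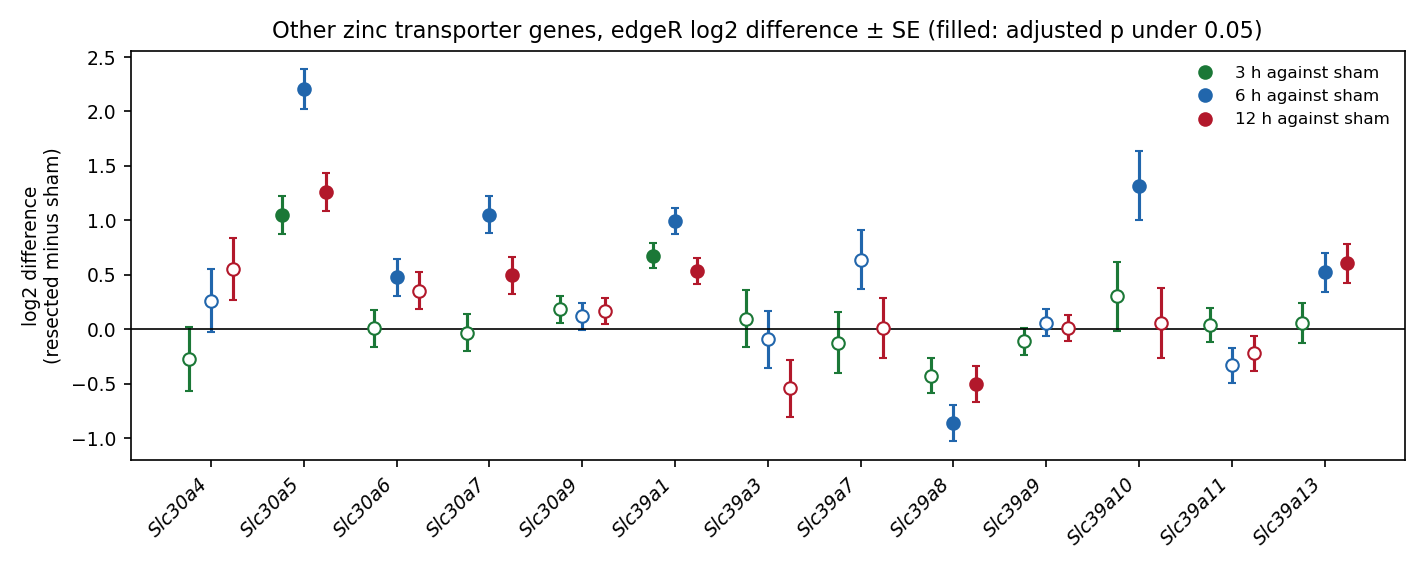
edgeR log2 difference from sham ± SE (vertical axis) for the 13 other tested ZnT and ZIP genes at 3, 6 and 12 h. Filled points have an adjusted p under 0.05; Slc30a5 at 6 h is the highest point at 2.21 and Slc39a8 at 6 h the lowest at -0.86.

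Known MTF-1 targets other than the members went in both directions. Of 7 tested genes, 2 rose and 2 fell at 3 h, 2 rose and 3 fell at 6 h, and 1 rose and 3 fell at 12 h. The rises at 6 h include Slc39a10, which passed the filter on low values mainly through its 6 h libraries. Hamp, which encodes the iron hormone hepcidin, rose by log2 0.99, 2.08 and 1.38 at 3, 6 and 12 h (edgeR adjusted p = 0.00364, 8.09e-06 and 0.000343). Gclc, the catalytic subunit of the enzyme that starts glutathione synthesis, differed by -0.93, -1.57 and -1.44 (edgeR adjusted p = 0.00364, 4.57e-05 and 0.000176). Slc40a1, which encodes the exporter ferroportin, differed by -1.37 and -1.67 at 3 and 6 h (edgeR adjusted p = 0.00035 and 3.64e-05) and by -0.30 at 12 h (edgeR adjusted p = 0.27). Ndrg1, a stress-responsive gene, had 0.310 ± 0.0768 FPKM at 12 h against 2.66 ± 0.319 in sham (SD, n = 3 each), a difference of -3.10 (edgeR adjusted p = 0.000167).

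Among 8 manganese genes 3 rose and 1 fell at 3 h, 5 rose and 1 fell at 6 h, and 3 rose at 12 h. The gene that fell at 3 and 6 h was Slc40a1. Arg1, the manganese enzyme of the urea cycle, rose by 0.87, 1.40 and 1.03 at 3, 6 and 12 h (edgeR adjusted p = 0.000699, 8e-06 and 0.000191). Pcx, the manganese-binding pyruvate carboxylase, rose by 0.75 at 3 h and 0.94 at 6 h (edgeR adjusted p = 0.00157 and 0.000158). It also rose by 0.44 at 12 h (edgeR adjusted p = 0.0257), a call lost without 12 h replicate 1 (0.42). Tmem165, a manganese carrier of the Golgi, rose by 0.71 at 6 h and 1.04 at 12 h (edgeR adjusted p = 0.00922 and 0.00118), and its 6 h call was lost with library totals as the scale (0.40). Of 11 copper genes 8 were tested, with 1 fall at 3 h, 1 rise and 2 falls at 6 h, and 1 rise and 2 falls at 12 h. The copper pump gene Atp7b fell at 6 h by 0.97 on the log2 scale (edgeR adjusted p = 0.00159), and Cp, encoding the copper protein ceruloplasmin, rose by 0.93 (edgeR adjusted p = 0.00614). Atp7b was also at -0.73 at 3 h and -0.60 at 12 h (edgeR adjusted p = 0.0145 and 0.0302). Cp was at 0.81 at 12 h (edgeR adjusted p = 0.0179). Both 12 h calls were lost without sham replicate 2 (-0.56 and 0.66), and the 3 h call without 3 h replicate 2 (-0.58). Sco2, a copper chaperone of mitochondria, is listed at 0 in all 12 libraries.

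Genes tied to known inducers of metallothioneins were described beside them. Of 7 genes of the IL-6 and STAT3 pathway, 6 rose and 1 fell at 3 h and at 6 h, and 4 rose and 1 fell at 12 h. Of all genes, 9.81%, 16.8% and 13.5% rose at 3, 6 and 12 h, and 11.7%, 18.2% and 15.3% fell. Osmr, which is among the rises each time, averaged 0.241 FPKM in sham. It passed the filter on low values through resected libraries, which favours a rise. Socs3, the feedback inhibitor of STAT3, rose by 3.96, 4.45 and 2.89 (edgeR adjusted p = 1.88e-05, 3.9e-06 and 0.00016). Its values were 4.56, 5.05 and 3.49 without sham replicate 2. The gene that fell each time was Lifr, by -1.03, -1.68 and -1.66 (edgeR adjusted p = 0.0025, 3.74e-05 and 9.05e-05). Of the glucocorticoid receptor gene Nr3c1 and 6 target genes, 4 rose and 1 fell at 3 h, 4 rose and 2 fell at 6 h, and 1 rose and 1 fell at 12 h. Nr3c1 differed by -1.01 at 3 h and -1.28 at 6 h (edgeR adjusted p = 0.00151 and 0.000139). The target Tsc22d3 was at -1.40 at 6 h (edgeR adjusted p = 0.0351), a call lost without sham replicate 3 (-0.46). Fkbp5, a receptor cochaperone that glucocorticoids induce, had 1.26 ± 0.478 FPKM in sham, 21.7 ± 7.88 at 3 h, 18.8 ± 4.58 at 6 h and 5.72 ± 1.13 at 12 h (SD, n = 3 each), and rose by 4.06, 3.87 and 2.17 (edgeR adjusted p = 4.57e-06, 2.59e-06 and 3e-04). Zbtb16, another glucocorticoid target, rose by 2.65 at 3 h and 2.61 at 6 h (edgeR adjusted p = 2.58e-05 and 1.31e-05), and fell at 12 h by 1.03 (edgeR adjusted p = 0.0162), a call lost without 12 h replicate 3 (-0.73). Of 5 tested NRF2 genes, 3 rose and 1 fell at 3 h and at 6 h, and 2 rose at 12 h. The gene that fell was Gclm, by -0.56 at 3 h and -1.08 at 6 h (edgeR adjusted p = 0.026 and 0.000216). Its 3 h call was lost without sham replicate 1 (-0.33). Hmox1, which encodes the haem-degrading enzyme heme oxygenase 1, rose by 2.90 at 3 h and 2.10 at 6 h (edgeR adjusted p = 0.000348 and 0.00151).

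Some markers of other cell types changed between the same groups. Neutrophil markers S100a8, S100a9, Retnlg, Ly6g and Csf3r summed to 1.51 to 2.16 FPKM in sham, 12.9 to 13.8 FPKM at 3 h, 8.93 to 18.8 FPKM at 6 h and 6.42 to 7.93 FPKM at 12 h, and 4, 3 and 2 of the 4 tested rose. In sham these 4 averaged under the 1 FPKM of the filter: S100a8 0.457, S100a9 0.697, Retnlg 0.0897 and Csf3r 0.651. They were thus tested mainly through resected libraries, which favours a rise. Of all genes, 9.81%, 16.8% and 13.5% rose at 3, 6 and 12 h. Ly6g was at or under 0.156 FPKM in every library. Endothelial markers summed to 15.9 to 20.6 FPKM in sham, 26.7 to 33.8 FPKM at 3 h, 20.6 to 25.0 FPKM at 6 h and 15.01 to 18.1 FPKM at 12 h. Of 5 tested, 2 rose at 3 h, 2 rose and 1 fell at 6 h, and 1 rose and 1 fell at 12 h. Macrophage markers summed to 53.0 to 74.9, 68.5 to 85.3, 49.2 to 59.6 and 44.8 to 56.0 FPKM in the same order of groups. Of 5 tested, edgeR called 0 at 3 h and 1 as higher at 6 h, and at 12 h Marco rose by 2.76 while Adgre1 and Clec4f were at -1.21 and -1.12 (edgeR adjusted p = 0.000363, 0.00234 and 0.000289). Stellate cell markers summed to 17.0 to 21.7, 23.1 to 33.8, 22.0 to 24.3 and 19.3 to 24.02 FPKM, and of 5 tested, 2 rose at 3 h, 0 were called at 6 h, and 1 rose and 1 fell at 12 h. Cholangiocyte markers gave 18.5 to 21.1, 28.4 to 38.9, 30.3 to 38.3 and 22.5 to 30.4 FPKM, and 2, 3 and 1 of the 3 tested rose. The cholangiocyte marker Epcam and the endothelial marker Lyve1 also averaged under 1 FPKM in sham, with 0.504 and 0.900. Red blood cell markers gave 64.4 to 77.3, 91.0 to 103, 57.2 to 70.7 and 33.1 to 45.6 FPKM, and of 3 tested, 1 rose at 3 h and 3 fell at 12 h. Lymphocyte markers summed to at most 1.25 FPKM and were not tested. Of the pancreatic acinar markers, Prss2 was at 0 in every library, and Cela1, the one tested, fell by log2 0.95 at 6 h (edgeR adjusted p = 0.00132) and 1.40 at 12 h (edgeR adjusted p = 0.00016). The part of these cells in the levels of the 7 members was not tested.

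The genes whose pattern was most like a member were found by Pearson's r of log2 CPM over the 12 libraries, which share the differences between groups, so that r is a description. For Mt1 they were Myl12a (0.992), Prg4 (0.991) and Lrg1 (0.987), which encode a myosin light chain, the lubricant proteoglycan 4 and a leucine-rich plasma glycoprotein. For Mt2 they were Tubb6 (0.983), a tubulin gene, Gm7694 (0.982) and B4galt1 (0.978), a galactosyltransferase gene. Slc39a14 was nearest to St3gal4 (0.990), a sialyltransferase gene, Steap4 (0.985), a metalloreductase gene, and Il1r1 (0.983), the interleukin 1 receptor gene. Steap4 had 25.9 ± 2.99 FPKM in sham, 635 ± 105 at 3 h, 797 ± 215 at 6 h and 105 ± 23.4 at 12 h (SD, n = 3 each).
For Slc30a10 the nearest were Stra6l (0.987), Tars (0.985) and Clpx (0.983), a retinol-binding protein receptor, a threonyl-tRNA synthetase and a mitochondrial unfoldase. For Slc39a4 they were Tymp (0.970), Cyp27a1 (0.967) and Tkt (0.966), which encode thymidine phosphorylase, sterol 27-hydroxylase and transketolase. Slc30a1 was nearest to Acp2 (0.978), a lysosomal phosphatase gene, Cxcl12 (0.953), a chemokine gene, and Hlf (0.948), a PAR bZIP transcription factor gene. Mtf1, which was not called in any comparison, reached no more than 0.837, with Zwint.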

How the data were processed

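The authors deposited 1 table with a whole-number read count and an FPKM value per gene for each of 12 liver libraries, and a gene length. The deposited counts are not normalized, and the deposited FPKM values divide them by gene length and an effective library size. CASAVA 1.8, fastp, HISAT2 2.0.5, featureCounts 1.5.0-p3, DESeq2 1.20.0 and GRCm38 (mm10) are named, with no roles, per the submitters' processing notes. Samples were grouped by title. Tested were the 11451 genes that reached 1 FPKM in at least 3 libraries, holding 99.1% or more of each library's counts. The counts were TMM-scaled and tested with edgeR 4.0.16 (quasi-likelihood, two-sided) in 1 model of 4 groups, and p-values were adjusted by Benjamini-Hochberg across all tested genes. The SE is the log2 difference over the root of F. The biological coefficient of variation was 20.6%. The test was checked on simulated data. Alternatives used DESeq2 1.42.0 and limma 3.58.1 in R 4.3.3. Named genes are the 7 members, up to 4 called genes of each list with the largest difference in a comparison (some others are named where a count needed them), and the 3 protein-coding genes of 5 FPKM or more most like each member. The members and lists were chosen with earlier results of these data known. Overlaps of exons were taken from GENCODE M21, in which all 7 genes have the deposited start and end.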

Additional observations from a re-analysis of the deposited data

Results flagged for a closer look

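For 6 of the 7 genes the difference from sham was not the same at 12 h as at the earlier times, by the edgeR test of 12 h against the earlier group itself. Mt1 was at log2 -1.68 at 12 h against 3 h (edgeR adjusted p = 0.00463) and -2.54 at 12 h against 6 h (edgeR adjusted p = 0.000498). Mt2 was at -4.50 and -4.17 in the same comparisons (edgeR adjusted p = 4.74e-06 and 6.46e-06). Slc39a14 was at -1.31 and -1.77 (edgeR adjusted p = 0.000513 and 8.71e-05), and Slc39a4 at -1.42 and -0.97 (edgeR adjusted p = 1.98e-05 and 0.000281). Slc30a10 was at -2.37 and -2.54 (edgeR adjusted p = 3.65e-06 and 2.25e-06). Slc30a1 alone of these 6 was higher at 12 h, by 1.17 against 3 h and 1.46 against 6 h (edgeR adjusted p = 0.000203 and 5.41e-05). In all 12 of these comparisons the 3 libraries of each group did not overlap, as for 46.8% of all genes at 12 h against 6 h and 55.7% at 12 h against 3 h.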

How the results depend on the processing

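With the replicate number as a block, 5 members were called at 3 h, 5 at 6 h and 6 at 12 h against sham, 0 at 6 h against 3 h, and 6 in each of the other comparisons, and no call of a member changed. Of all 11451 genes, the block gave 1013 higher and 1182 lower at 3 h against sham. It gave 1799 and 1947 at 6 h, and 1400 and 1574 at 12 h. At 6 h against 3 h it gave 377 and 365. At 12 h it gave 1260 and 1254 against 6 h, and 1849 and 1915 against 3 h. No pairing by number was evident. Deviations of same-numbered libraries correlated at -0.255 to 0.173 over 18 pairs (median 0.031). For 36 differently numbered pairs the range was -0.270 to 0.324 (median -0.017). With 3 libraries per group these values are tied to each other and cannot exclude a shared batch. At 6 h against 3 h the members called were 0, and 1 with RLE scaling, library totals, no filter, only the 6 libraries compared, DESeq2, or no sham replicate 1 and no 6 h replicate 3. Leaving out each library gave 0 to 2, with 2 without sham replicate 1. Of all tested genes, 509 were called higher and 479 lower in the main fit, and 1068 and 1043 without sham replicate 1. They were 451 and 522 with RLE scaling, 325 and 756 with library totals, and 711 and 823 with DESeq2. With only the 6 libraries compared they were 709 and 776. With no sham replicate 1 and no 6 h replicate 3 they were 709 and 657. With no filter they were 609 and 883 of 27369 genes. For other metal genes at 12 h against sham, 15 became 9 with only the 6 libraries compared, and 9 to 19 with each library left out. Leaving out each library gave 4 to 5 members called against sham at 3 h, and 5 to 6 both at 6 h and at 12 h. Differences that were not called changed sign for Slc39a4 at 3 h against sham (-0.090 with library totals) and for Mtf1. Mtf1 at 6 h against 3 h ranged over -0.12 to 0.057 with each library left out (highest without 6 h replicate 1). At 12 h against 6 h it reached 0.25 with library totals, 0.036 with no sham replicate 1 and no 6 h replicate 3, 0.036 without 6 h replicate 3 and 0.084 without 12 h replicate 1, within -0.18 to 0.084 over all libraries left out in turn. At 12 h against 3 h it reached 0.079 with library totals and ranged over -0.22 to 0.051 with each library left out (highest without 12 h replicate 1). The cause was not tested. Fitted Mt2 differences from sham at 3 h ranged over 5.76 to 12.1, those at 6 h over 5.38 to 11.8 and those at 12 h over 1.69 to 7.61, lowest with limma on log2(FPKM + 1) and highest without sham replicate 3. Library totals shifted the median of all genes by -0.18 at 3 h and -0.31 at 6 h against sham. Mt2 had 3 counts in all sham libraries together, which limits the precision of its ratios to sham.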
